A study of Homo sapiens with 4 samples.

Results

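The genes that encode mitochondrial ribosomal proteins were examined in SK-MEL-28 cells, a human melanoma cell line, with and without a Tet-inducible MYC gene switched on by doxycycline. Members were all symbols of the expression table made of MRPL or MRPS and a number, with or without a closing letter A to C. This gave 77 of 25268 symbols, 48 with an MRPL symbol (large subunit) and 29 with an MRPS symbol (small subunit), and the classes are described apart. The cells carried either the empty pTRIPZ vector or a MYC gene behind a Tet-inducible promoter, and each line was left untreated or was given doxycycline (Dox) for 54 h. RNA-Seq was available for 4 libraries, 1 per condition, which are called the untreated and Dox libraries of the pTRIPZ line (the empty vector) and of the Tet-MYC line (the inducible MYC gene). Both lines were made by lentiviral transduction and geneticin selection, and whether the lines were clones is not given in the sources used here. With 1 library per condition, no difference had a replicate check and no test of the conditions could be made.

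Mitochondria contain their own ribosomes, which translate the few proteins encoded by mitochondrial DNA, all of them subunits of the respiratory chain and ATP synthase. The ribosomal RNAs come from mitochondrial DNA, whereas every protein of the mitochondrial ribosome is encoded in the nucleus, made in the cytosol and imported. Many of these proteins descend from bacterial ribosomal proteins, and others were added during the evolution of mitochondria. MYC is a transcription factor that binds E-box sequences, and genes for ribosome production and mitochondrial function are among its known targets.

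The values are FPKM, fragment numbers scaled to transcript length and to sequencing depth, so levels can be set side by side between genes. A change is the difference of log2(FPKM + 0.1) between 2 libraries. A gene is said to have risen or fallen where its change was at least 1.5-fold, which is a rule of size and not a test. All genes tested are the 11147 whose average level reached 1 FPKM, and all 77 members were among them. The approximate depth was 35300000 to 42300000 fragments per library. MYC itself stood at 58.3 and 54.8 FPKM in the pTRIPZ line without and with Dox, and at 76.5 and 87.1 FPKM in the Tet-MYC line. With Dox in the Tet-MYC line MYC was thus 1.14-fold higher, under the 1.5-fold bar, and without Dox it was 1.31-fold higher in the Tet-MYC line than in the pTRIPZ line. Whether fragments of the introduced gene were counted under this symbol is not given in the sources used here, and libraries are named by their labels. All 7 melanocyte markers examined were expressed, and their summed level was 7911, 7872 and 7771 FPKM in the untreated pTRIPZ line, the pTRIPZ line with Dox and the untreated Tet-MYC line, against 4414 FPKM in the Tet-MYC line with Dox, where 4 of the 7 fell. Of 6 markers of blood, endothelial, epithelial and fibroblast cells, EPCAM alone averaged over 1 FPKM (0.658, 0.769, 0.726 and 2.71 FPKM, libraries in the same order), the summed level of the 6 was 0.826 to 0.869 FPKM in the other 3 libraries and 2.81 FPKM in the Tet-MYC line with Dox, and KRT5 was listed at 0 in all 4. These marker levels moved with the same library as the results that follow, and their part in those results was not tested. In bulk RNA, fewer cells of a type and less RNA per cell cannot be told apart.

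The mitochondrial ribosomal protein genes were expressed over a wide range in every library. Without Dox, the MRPL genes of the Tet-MYC line ranged from 9.20 FPKM (MRPL19) to 311 FPKM (MRPL20), with a median of 72.5 FPKM. The MRPS genes of the same library ranged from 10.5 FPKM (MRPS31) to 198 FPKM (MRPS34), with a median of 57.7 FPKM. The median MRPL level was 71.4 FPKM in the untreated pTRIPZ line, 70.2 FPKM in the pTRIPZ line with Dox and 93.2 FPKM in the Tet-MYC line with Dox. The corresponding MRPS medians were 58.3, 61.7 and 84.6 FPKM. The Tet-MYC line with Dox thus had the highest median of both classes, and the other 3 libraries lay close together.

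**Figure D1:**
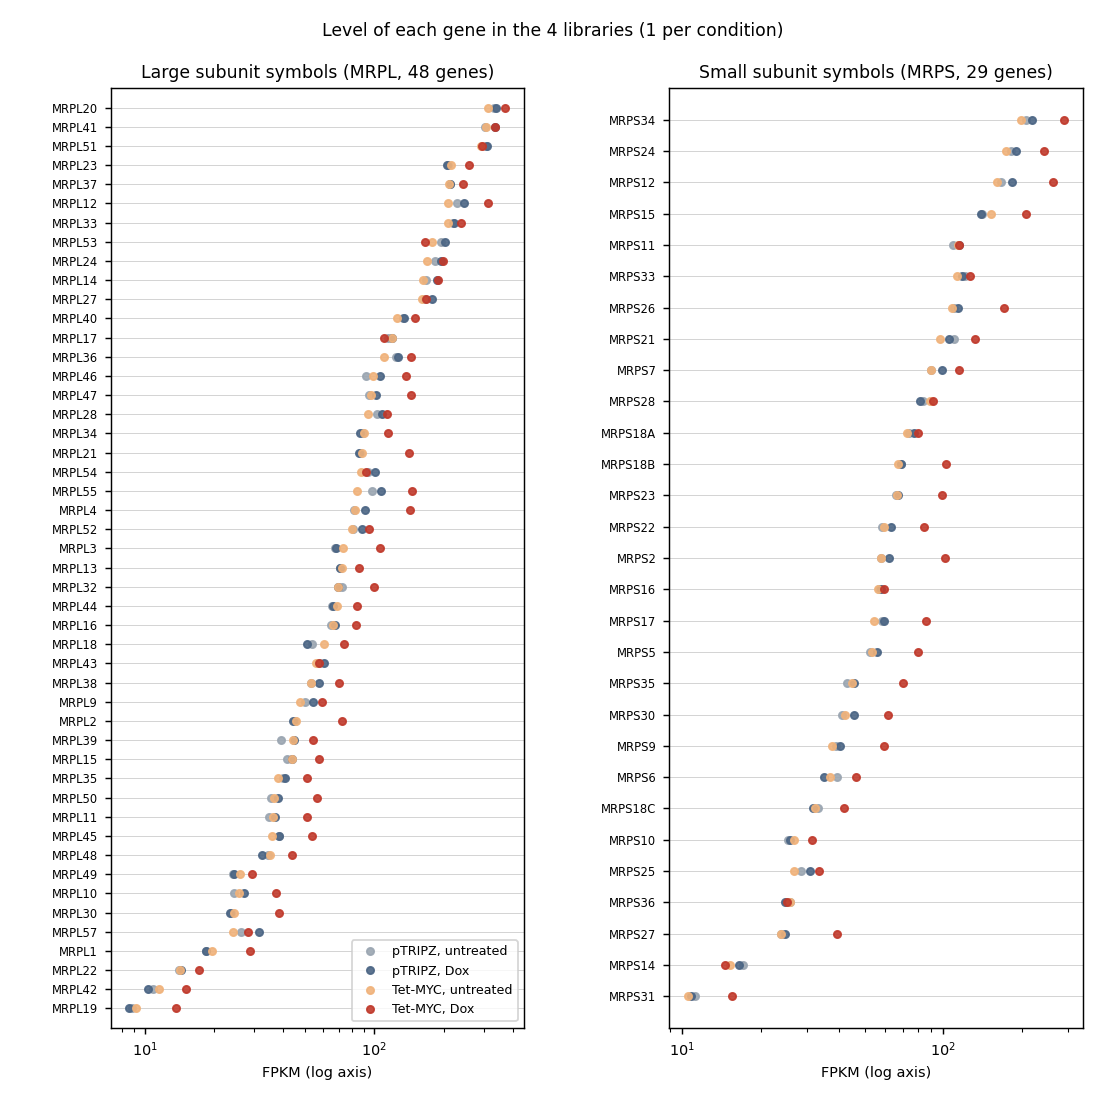
FPKM (log axis) of the 48 MRPL genes (left) and the 29 MRPS genes (right) in the 4 libraries, 1 point per library and gene. Genes are ordered by their level in the untreated Tet-MYC line. The red point of the Tet-MYC line with Dox is the rightmost in 40 MRPL and 26 MRPS rows, and the leftmost in MRPL17, MRPL53 and MRPS14.

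The first question was how the members differed with Dox in the Tet-MYC line. Of the 48 MRPL genes, 46 were higher with Dox, against 46.8% of all genes tested. Their median log2 change was 0.32 (quartiles 0.23 and 0.53), and 6 of the 48 rose, against 5.90% of all genes tested. None fell, against 8.85% of all genes tested. Of the 29 MRPS genes, 27 were higher with Dox, the median log2 change was 0.48 (quartiles 0.23 and 0.62), 8 rose and none fell. The median over all genes tested was −0.03 on the same scale. With the libraries brought to an equal FPKM sum, 44 MRPL and 25 MRPS genes were higher. The median log2 change of all genes tested was then −0.07, and their share that was higher was not computed. At a lower bar of 25%, 24 MRPL and 21 MRPS genes passed upward, against 16.9% of all genes tested. The difference was therefore made of moderate increases in most members rather than of large increases in a few, and no member reached 2-fold. Among the members, MRPS18B lay just inside the 1.5-fold bar at 1.53-fold and MRPS5 just outside it at 1.4999-fold.

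In the pTRIPZ line, the same comparison gave small values. The median log2 change with Dox was 0.04 for MRPL and 0.05 for MRPS, and 0.01 for all genes tested. No member rose or fell 1.5-fold, against 0.709% and 0.440% of all genes tested, and none was higher by 25%, against 2.36%. The largest log2 change in the pTRIPZ line was 0.27, in MRPL57. Between the untreated lines, the median log2 difference (Tet-MYC minus pTRIPZ) was 0.01 for MRPL and −0.02 for MRPS, with no member past 1.5-fold in either direction, against 0.592% upward and 0.287% downward of all genes tested. Over all genes tested, the changes had a robust SD of 0.11 on the log2 scale in the pTRIPZ line, of 0.11 between the untreated lines and of 0.36 for Dox in the Tet-MYC line.

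With the change of the pTRIPZ line subtracted, the median log2 difference was 0.29 for MRPL and 0.47 for MRPS. It was at least 1.5-fold upward in 6 MRPL and 7 MRPS genes, against 5.85% of all genes tested. With each library rescaled to the same FPKM sum, 3 MRPS genes passed, against 5.17% of all genes tested. The choice of reference library touched the median and the 1.5-fold count more in the MRPS class. The number of genes higher moved only in the MRPL class. With the pTRIPZ line with Dox as reference, 40 of 48 MRPL and 27 of 29 MRPS genes were higher. With the untreated Tet-MYC line as reference, the numbers were 46 and 27. Of the 11147 genes tested, 5481 and 5220 were higher, in the same order of references. Against the pTRIPZ line with Dox, the Tet-MYC line with Dox had a median log2 difference of 0.31 for MRPL and 0.41 for MRPS, and 7 MRPL but only 3 MRPS genes were at least 1.5-fold higher, against 6.50% of all genes tested. With median ratio scaling, 10 MRPL and 10 MRPS genes rose with Dox in the Tet-MYC line, against 6.68% of all genes tested. The Tet-MYC line with Dox was the highest of the 4 libraries in 40 of 48 MRPL and 26 of 29 MRPS genes, against 40.2% of all genes tested. It was the lowest in 2 MRPL genes and 1 MRPS gene, against 42.9% of all genes tested.

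As a share of all FPKM, MRPL genes took 0.673%, 0.693% and 0.667% of the sum in the untreated pTRIPZ line, the pTRIPZ line with Dox and the untreated Tet-MYC line, and 0.792% in the Tet-MYC line with Dox. MRPS genes took 0.304%, 0.310%, 0.304% and 0.403% in the same order. From the approximate depth and the annotated transcript length, the counting error of a member's log2 change was 0.01 to 0.07 in the Tet-MYC line. The change with Dox was over 2 counting errors in 69 of 77 members in that line and in 32 in the pTRIPZ line. No such count was made over all genes tested, so it gives no comparison with them. Counting errors leave out every difference between cultures.

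In the large subunit, the largest increase was in MRPL4, a homolog of bacterial L4, which lines the exit tunnel in bacteria. MRPL4 (GRCh37, chr19:10362577-10370731, plus strand) had 81.6 FPKM in the untreated pTRIPZ line, 90.7 FPKM in the same line with Dox, 81.9 FPKM in the untreated Tet-MYC line and 142.9 FPKM in the Tet-MYC line with Dox. The Tet-MYC Dox library stood above the other 3, and MRPL4 rose 1.74-fold with Dox in the Tet-MYC line, against a log2 change of 0.15 in the pTRIPZ line. MRPL55, of the central protuberance, had 97.6, 106.4, 84.4 and 145.9 FPKM in the same order of libraries. It rose 1.73-fold, but its level without Dox was lower in the Tet-MYC line than in the pTRIPZ line, and the log2 difference between the lines with Dox was 0.46.

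The other risen MRPL genes named here are MRPL2, MRPL21 and MRPL30, and each had a pTRIPZ-line change below 0. MRPL2, a homolog of the bacterial protein L2 near the peptidyl transferase centre, had 44.9, 44.02, 45.6 and 72.5 FPKM, a rise of 1.59-fold. MRPL21, a homolog of bacterial L21, had 86.1, 85.5, 88.5 and 141.2 FPKM and rose 1.59-fold. MRPL30, a homolog of L30, had 23.9, 23.4, 24.5 and 38.2 FPKM and rose 1.56-fold. In these 3 genes the other 3 libraries lay close together, and the Tet-MYC Dox library lay apart from them. The sixth risen gene was MRPL50, with a log2 change of 0.63.

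The stalk is the flexible arm of the large subunit that recruits translation factors. Its 4 genes had a median log2 change of 0.51 in the Tet-MYC line and 0.10 in the pTRIPZ line. None of them rose, against 5.90% of all genes tested. MRPL12, the stalk protein homologous to bacterial L7/L12, had 228, 245, 210 and 313 FPKM. MRPL10, which anchors MRPL12 to the ribosome, had 24.5, 27.2, 25.8 and 37.3 FPKM, a log2 change of 0.53. MRPL11, at the base of the stalk, had 34.9, 37.1, 36.3 and 51.1 FPKM, a log2 change of 0.49. In all 3 the Tet-MYC Dox library was the highest, and MRPL12 at 1.49-fold lay just under the bar. MRPL53, which has no bacterial counterpart, went the other way, with 195, 204, 178 and 166 FPKM, so that the Tet-MYC Dox library was the lowest of the 4.

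MRPL17, a homolog of bacterial L17 near the exit of the tunnel, likewise had its lowest value in the Tet-MYC Dox library, with 114, 119, 120 and 110 FPKM. Its log2 change of −0.12 was the lowest of all 77 members. The 8 genes listed for the exit tunnel region, a list that does not hold MRPL4, had a median log2 change of 0.28, and none of the 8 rose. The 8 genes of the central protuberance had a median of 0.30, and 1 rose, MRPL55. The share risen among all genes tested was 5.90%. Among the genes of highest level, MRPL20, a homolog of bacterial L20, had 333, 338, 311 and 372 FPKM, and MRPL41, which has no bacterial counterpart, had 304, 336, 307 and 334 FPKM. MRPL51, likewise without one, had 305, 310, 290 and 295 FPKM. The Tet-MYC Dox library was the highest only for MRPL20 of these 3, and the log2 changes in the Tet-MYC line were 0.26, 0.12 and 0.02. With each library rescaled to the same sum, the value of MRPL51 was −0.02. MRPL57 had 26.2, 31.6, 24.2 and 28.3 FPKM, and its log2 change with Dox was 0.23 in the Tet-MYC line and 0.27 in the pTRIPZ line.

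Grouped by origin, the 30 MRPL genes with a bacterial homolog had a median log2 change of 0.39 and 5 rose. The 17 MRPL genes specific to mitochondria had a median of 0.26, and 1 rose. The Tet-MYC Dox library was the highest of the 4 in 28 of the 30 and in 12 of the 17. In the small subunit the order of the groups was the opposite, with a median of 0.41 and 4 risen of 16 genes with a bacterial homolog, and a median of 0.56 and 4 risen of 10 mitochondria-specific genes. The Tet-MYC Dox library was the highest in all 10 of the latter. MRPL57, MRPS36, MRPS18A and MRPS30 were placed in none of these groups. MRPS18B was counted as mitochondria-specific and MRPS18C among the genes with a bacterial homolog, although the MRPS18 proteins are related. Among all genes tested 5.90% rose, and the difference between the groups was not tested in either subunit.

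In the small subunit, the largest increase of all 77 members was in MRPS2, a homolog of bacterial S2. MRPS2 (GRCh37, chr9:138391830-138396519, plus strand) had 57.8 FPKM in the untreated pTRIPZ line, 61.7 FPKM in the same line with Dox, 57.7 FPKM in the untreated Tet-MYC line and 101.5 FPKM in the Tet-MYC Dox library. It rose 1.76-fold in the Tet-MYC line, with a log2 change of 0.09 in the pTRIPZ line. MRPS12, a homolog of S12 in the decoding centre, had 166, 183, 160 and 263 FPKM and rose 1.64-fold. MRPS27, a pentatricopeptide repeat protein without a bacterial counterpart, had 23.99, 24.8, 23.96 and 39.3 FPKM and rose 1.64-fold. Each of these 3 genes had its highest value in the Tet-MYC Dox library. The log2 difference between the lines with Dox was 0.72 for MRPS2 and 0.66 for MRPS27. For MRPS12 it was 0.52, under the 1.5-fold bar.

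MRPS9, of the head of the small subunit, had 38.9, 40.3, 37.4 and 59.4 FPKM and rose 1.59-fold. MRPS17, a homolog of S17, had 58.4, 59.3, 54.5 and 85.5 FPKM and rose 1.57-fold. The level of MRPS17 was lower without Dox in the Tet-MYC line than in either pTRIPZ library, and its log2 difference between the lines with Dox was 0.53, under the 1.5-fold bar. The other risen genes were MRPS35 (log2 change 0.66), MRPS26 (0.65) and MRPS18B. The 8 genes of the head had a median log2 change of 0.42, and 2 rose, against 5.90% of all genes tested. The highest levels of the class belonged to MRPS34, with 206, 219, 198 and 290 FPKM, and to MRPS24, which forms part of the mRNA entry, with 182, 190, 174 and 243 FPKM. For both, as for MRPS12, the Tet-MYC Dox library was the highest.

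The 3 MRPS18 genes encode related proteins that occupy different places on the ribosome. MRPS18B had 68.9, 69.0, 67.0 and 102.7 FPKM and rose 1.53-fold. The table lists MRPS18B in 7 rows, 6 of them at 0, and the rows were summed. MRPS18C had 33.1, 31.6, 32.1 and 41.5 FPKM, a log2 change of 0.37. MRPS18A, which despite its symbol is a protein of the large subunit, had 73.7, 77.4, 72.6 and 79.8 FPKM, a log2 change of 0.14. The order of the 3 by change was MRPS18B, MRPS18C and MRPS18A, whereas by level in the library without Dox of the same line it was MRPS18A, MRPS18B and MRPS18C. MRPS30, the other protein with a small subunit symbol that sits in the large subunit, had 41.1, 45.4, 41.9 and 61.5 FPKM, a log2 change of 0.55.

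The Tet-MYC Dox library was not the highest for 3 MRPS genes. MRPS11, a homolog of S11, had 109, 115, 114 and 115 FPKM, with a log2 change of 0.02 that was −0.03 under the same-sum scaling. MRPS14, a homolog of S14 in the head, had 17.1, 16.5, 15.2 and 14.5 FPKM, and the Tet-MYC Dox library was the lowest of the 4. MRPS36, which is also known as a component of the 2-oxoglutarate dehydrogenase complex, had 26.0, 24.7, 25.9 and 25.2 FPKM. For MRPS14 and MRPS36 the log2 change in the Tet-MYC line, −0.06 and −0.04, was close to that in the pTRIPZ line, −0.05 and −0.07.

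Members that are neighbours in the genome did not always move alike. MRPL46, of the central protuberance, and MRPS11 lie head to head on chromosome 15 (GRCh37), with annotated starts 63 bases apart on opposite strands. MRPL46 had a log2 change of 0.48 with Dox in the Tet-MYC line and 0.20 in the pTRIPZ line. For MRPS11 the values were 0.02 and 0.08, in the same order. MRPS12 and SARS2, the mitochondrial seryl-tRNA synthetase, lie head to head on chromosome 19 with starts 181 bases apart. The log2 changes of MRPS12 and SARS2 were 0.72 and 0.41 in the Tet-MYC line, and 0.14 and 0.25 in the pTRIPZ line. Of the 77 members, 48 are overlapped by another annotated gene and 37 by a protein-coding one. The use of strand in counting is not given in the sources used here, so fragments of overlapping genes may have been shared.

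Proteins of the mitochondrial ribosome that carry other symbols were examined beside the members. The 6 genes outside the rule had a median log2 change of 0.33 in the Tet-MYC line and 0.05 in the pTRIPZ line. None of the 6 rose, against 5.90% of all genes tested. DAP3, a GTP-binding protein of the small subunit head, had 62.2, 63.0, 60.1 and 82.6 FPKM, with the Tet-MYC Dox library the highest. AURKAIP1, a small subunit protein, had the highest level, with 487, 507, 455 and 565 FPKM. GADD45GIP1, a large subunit protein, had 284, 288, 266 and 322 FPKM. PTCD3, a pentatricopeptide repeat protein of the small subunit, had 12.4, 12.8, 13.4 and 16.995 FPKM. ICT1, which releases peptides from stalled ribosomes, had 26.1, 30.6, 25.8 and 35.1 FPKM. CHCHD1 had 69.8, 73.8, 66.2 and 71.6 FPKM, and its Tet-MYC Dox library was not the highest.

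Genes that act with the mitochondrial ribosome were counted by list, beside 5.90% risen among all genes tested. The list of translation factors held 16 genes, some of which, such as LRPPRC and SLIRP, are not themselves translation factors. Its median log2 change was 0.35 with Dox in the Tet-MYC line and 0.02 in the pTRIPZ line. Of the 16 genes 5 rose, LRPPRC and SLIRP included. Among them TUFM, the mitochondrial elongation factor Tu, had 179, 186, 170 and 287 FPKM. LRPPRC, which stabilizes mitochondrial mRNAs together with SLIRP, had 25.8, 25.3, 27.7 and 47.0 FPKM, and SLIRP had 325, 359, 329 and 539 FPKM. MTIF3, an initiation factor, had 33.7, 31.8, 29.5 and 26.4 FPKM, with the lowest value in the Tet-MYC Dox library. TUFM, LRPPRC and SLIRP rose, and MTIF3 did not pass the bar in either direction.

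The 17 mitochondrial tRNA synthetases had a median log2 change of 0.32, and 2 rose (11.8%, against 5.90% of all genes tested). MARS2, the methionyl enzyme, had 5.31, 5.05, 5.70 and 10.9 FPKM and rose, whereas AARS2, the alanyl enzyme, had 9.28, 9.01, 10.6 and 9.39 FPKM. The most abundant were IARS2 and CARS2, with log2 changes of 0.34 and −0.05. The 24 genes for assembly of the mitochondrial ribosome had a median of 0.33, and 3 rose (12.5%). RNMTL1, a methyltransferase of the large ribosomal RNA, had 16.6, 18.7, 16.6 and 30.3 FPKM and rose, whereas TFB1M, a methyltransferase of the small ribosomal RNA, had 11.8, 11.1, 13.5 and 12.9 FPKM. The most abundant were NGRN and MALSU1, with log2 changes of −0.01 and 0.13.

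The list with the largest median was that of 12 genes for mitochondrial transcription and RNA processing, whose median change was 0.73 on the log2 scale in the Tet-MYC line and 0.04 in the pTRIPZ line. Of these 12 genes, 7 rose (58.3%), against 5.90% of all genes tested. ELAC2, the endonuclease that trims the end of mitochondrial tRNA precursors, had 19.0, 19.6, 19.0 and 36.5 FPKM and rose. TRMT10C, a subunit of mitochondrial RNase P, had 30.6, 31.4, 29.1 and 48.1 FPKM and rose. HSD17B10, another subunit of the same enzyme, had 197, 207, 192 and 246 FPKM, a log2 change of 0.36. KIAA0391, the nuclease subunit of it, had 12.1, 12.5, 11.7 and 11.98 FPKM, a log2 change of 0.03. The 3 subunits of RNase P therefore had unequal changes.

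Larger groups served as a comparison. The 80 tested genes for cytosolic ribosomal proteins had a median log2 change of 0.28, and 2 rose (2.5%). The 74 nuclear genes of the respiratory chain and ATP synthase had a median of 0.13, and 2 rose (2.70%). Both shares were below the 5.90% of all genes tested. In the pTRIPZ line both medians were 0.01. The MRPL and MRPS medians of 0.32 and 0.48 were higher than that of the respiratory chain genes. The MRPL median was near those of the mitochondrial tRNA synthetases (0.32), assembly genes (0.33), the translation factor list (0.35) and cytosolic ribosomal proteins. The MRPS median was above these and below that of mitochondrial transcription and RNA processing (0.73). The differences between lists were not tested. No mitochondrially encoded transcript had a row in the table under the symbols searched, so the products of the ribosome's own translation are not analysed here. Of the MRP pseudogenes, 2 passed the filter, and neither changed by 1.5-fold.

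**Figure D2:**
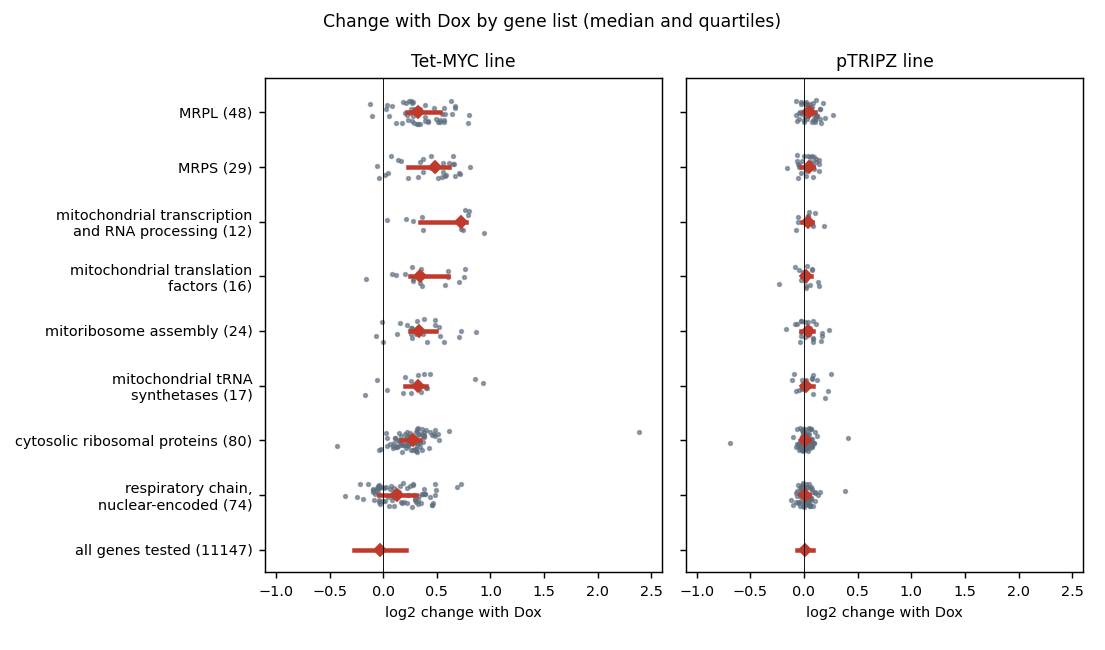
Log2 change with Dox in the Tet-MYC line (left) and the pTRIPZ line (right) by gene list, each dot being 1 gene, with the median (diamond) and the quartiles (bar), and with the number of genes in parentheses. In the Tet-MYC line the medians run from 0.73 for mitochondrial transcription and RNA processing to 0.13 for the respiratory chain and −0.03 for all genes tested, whereas in the pTRIPZ line they lie between 0.01 and 0.05.

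The level and the length of a member were compared with its change. Across the 48 MRPL genes, Spearman's rho between mean FPKM and the log2 change in the Tet-MYC line was −0.38, and between annotated transcript length and the change it was 0.31. Across the 29 MRPS genes the values were 0.15 and −0.06, and across all genes tested 0.10 and −0.06, the length being known for 10217 of them. The genes share the same libraries and are not independent, so these values are descriptions. The 39 shorter members (496 to 1260 bases) had a median log2 change of 0.34, and the 38 longer members (1315 to 15557 bases) had one of 0.42. All genes tested in the same length ranges had medians of 0.00 and −0.03.

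Promoters were examined for motifs of factors known to act on genes of mitochondrial function, as a feature that the symbols did not fix. RefSeq promoter sequences (GRCh38.p14, 250 bases before to 50 after the start) were matched for 68 of the 77 members by symbol. Both strands of the whole sequence were searched for exact letters, and the windows printed here end at most 25 bases after the start. The motifs were the canonical E-box CACGTG, to which MYC with MAX binds, the E-box variant CACGCG, the ETS motif CCGGAAGT bound by GABPA (also called NRF-2), the palindromic NRF1 motif and the YY1 motif ATGGCGGC. None of the 5 motifs is contained in another. The following promoter windows show matches in members with large, middling and small changes, written along the gene's strand with the motif in capitals. The first 4 show the canonical E-box, in MRPS2 (chr9:135499882-135499941, plus strand), MRPL45 (chr17:38297008-38297067, plus strand), MRPS18C (chr4:83455852-83455911, plus strand) and MRPS33 (chr7:141014748-141014807, minus strand), and the last 3 show the YY1 motif, in MRPS35 (chr12:27710817-27710856, plus strand), MRPL46 (chr15:88467364-88467404, minus strand) and MRPS14 (chr1:175023401-175023435, minus strand).
MRPS2: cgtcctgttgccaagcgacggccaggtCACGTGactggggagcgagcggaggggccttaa
MRPL45: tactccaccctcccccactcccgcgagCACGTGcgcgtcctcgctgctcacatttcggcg
MRPS18C: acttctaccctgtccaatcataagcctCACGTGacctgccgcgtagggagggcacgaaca
MRPS33: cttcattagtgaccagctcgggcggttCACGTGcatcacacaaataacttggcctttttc
MRPS35: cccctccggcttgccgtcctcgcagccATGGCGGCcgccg
MRPL46: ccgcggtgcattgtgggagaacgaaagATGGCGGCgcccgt
MRPS14: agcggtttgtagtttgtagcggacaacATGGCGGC

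The E-box of MRPS2 begins 56 bases before the start, that of MRPL45 133 bases before it, that of MRPS18C 179 and that of MRPS33 101. The log2 changes with Dox in the Tet-MYC line were 0.81 for MRPS2, 0.57 for MRPL45, 0.37 for MRPS18C and 0.16 for MRPS33, so the gene with the largest increase and a gene with a small increase both hold the same 6 letters, which are printed above. In the YY1 windows the motif begins 12, 11 and 17 bases after the start, and the log2 changes were 0.66 for MRPS35, 0.48 for MRPL46 and −0.06 for MRPS14. The letters of the YY1 motif begin with ATG and can also be read as the first codons of a protein, and whether they are the start codon in these genes was not tested.

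The share of member promoters with a canonical E-box lay close to that of expressed genes. It was held by 11.8% of 51 MRPL promoters and 9.09% of 33 MRPS promoters, against 9.75% of the 12225 promoters of genes tested and 7.27% of all 34961 promoters. The E-box variant was held by 17.6% of MRPL and 15.2% of MRPS promoters, against 17.8% for genes tested and 11.4% for all promoters. The largest gap to the genes tested, in both classes, was that of the YY1 motif, held by 19.6% of MRPL and 27.3% of MRPS promoters, against 5.64% for genes tested and 3.003% for all. The ETS motif was held by 21.6% of MRPL but 9.09% of MRPS promoters, against 8.09% for genes tested and 4.14% for all. The NRF1 motif was held by 1.96% of MRPL and 0% of MRPS promoters, against 2.02% for genes tested and 1.24% for all. None of these shares was tested.

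Members with a canonical E-box had a lower median change than those without, a difference that was not tested. The 9 members that hold it had a median log2 change of 0.28 with Dox in the Tet-MYC line, and 1 of them rose (MRPS2). The 59 without it had a median of 0.39, and 11 rose. Over all genes tested with a promoter, the 1109 with a canonical E-box had a median of 0.02 and 9.56% rose, against 4.87% of those without. The 18 members with the YY1 motif had a median of 0.48, and 4 rose, against a median of 0.33 and 8 risen among the 50 without. For all genes tested with a promoter, the 657 with the YY1 motif had a median of 0.05, and 5.78% rose. The 7717 without it had a median of −0.03, and 5.47% rose. The 12 members with the ETS motif had a median of 0.31, and none rose. Among the 56 members without it the median was 0.38, and 12 rose. The shares risen over all genes with and without the ETS motif were 5.47% and 5.50%. A match is only a run of letters within this window, and the absence of one says nothing about the binding of a factor.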

How the data were processed

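RNA-Seq of the 4 libraries of SK-MEL-28 cells was deposited by the authors as FPKM values per gene symbol. The submitters' processing notes name TopHat2 2.0.14 and Cufflinks, with the GRCh37 (hg19) build. The settings of these programs, the annotation and the use of strand are not given in the sources used here. The table had 27032 rows. The 1 row that lacked a gene name was dropped, and rows of the 609 repeated symbols were added up, leaving 25268 symbols. FPKM values are not counts and each condition has 1 library, so no test was made. Changes are differences of log2(FPKM + 0.1), over 11147 genes averaging 1 FPKM or more, with a 1.5-fold bar. The depth was approximated from the smallest step of low values in 79 genes of known length, and counting errors follow from it. FPKM is a share of a library, so a change in total RNA per cell cannot be seen. Positions and lengths came from GENCODE release 44 on GRCh37, promoters from RefSeq on GRCh38.p14, and the 2 builds were not mixed.

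Genes were named, per class, for the 5 largest and 3 lowest differences between the lines, the 3 highest levels, a fixed set (stalk, MRPS12, the MRPS18 genes, MRPS30, MRPS36), several rows, and ribosomal proteins with other symbols. Of each list, the largest and lowest change and the 2 highest levels were eligible. MRPL50, MRPS35, MRPS26, MRPS5, MRPL46, MRPS6 and SARS2, and the genes whose promoters are printed, were named after their values were seen. The members and lists were chosen with earlier results of these data known. Alternatives were other pseudocounts, filters, scalings, thresholds, handling of repeated symbols, the mean for the median, and another reference library. The calculation was tested on simulated data. Python 3.11.15, pandas 2.3.3 and numpy 2.4.6 were used.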

Additional observations from a re-analysis of the deposited data

Results flagged for a closer look

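In 20 of the 77 members the log2 change with Dox had opposite signs in the 2 lines. The share of all genes tested with opposite signs was not computed. Of the 11147 genes tested, 5220 were above 0 in the Tet-MYC line and 6041 in the pTRIPZ line. In 18 of the 20 members the value was above 0 in the Tet-MYC line and below 0 in the pTRIPZ line. In MRPL17 and MRPL53 it was the reverse. Among the MRPL genes, the Tet-MYC change less the pTRIPZ change was 0.70 for MRPL2, 0.68 for MRPL21, 0.67 for MRPL30, 0.60 for MRPL19, 0.57 for MRPL32, 0.55 for MRPL1, 0.46 for MRPL42, 0.40 for MRPL48, 0.39 for MRPL34, 0.35 for MRPL18 and 0.28 for MRPL23, and it was −0.18 for MRPL17 and −0.17 for MRPL53. Among the MRPS genes, it was 0.60 for MRPS31, 0.50 for MRPS6, 0.50 for MRPS21, 0.47 for MRPS15, 0.43 for MRPS18C, 0.20 for MRPS33 and 0.0868 for MRPS28. The pTRIPZ values of the 20 members ran from −0.16 to 0.07, and 1 of them, that of MRPS6, was larger than the robust SD of all genes tested (0.11). Of the other genes named, signs were opposite for MYC (0.28), LRPPRC (0.79), MARS2 (0.998) and NGRN (−0.0494). With 1 pair of libraries per line, these differences were not tested.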

How the results depend on the processing

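No paired analysis was possible because there is a single library per condition, and for the same reason no library could be left out. Of 214 alternative values of the class medians and counts, 203 moved by less than the spread between the untreated libraries (counts by at most 1.5 times) and 11 moved more. Of the 203, 4 turned their sign, all of them medians near 0 between the untreated lines, which ran from −0.02 to 0.03 for MRPL and from −0.05 to 0.00 for MRPS. Over all alternatives the median log2 change upon Dox in the Tet-MYC line was 0.27 to 0.35 for MRPL and 0.41 to 0.51 for MRPS, in the pTRIPZ line 0.02 to 0.05 and 0.03 to 0.05, and the difference between the lines 0.26 to 0.32 and 0.39 to 0.51. The counts of risen genes moved more. With a 2-fold bar 0 MRPL and 0 MRPS genes rose in the Tet-MYC line and 0 of either in the difference between the lines, against 1.05% and 1.18% of all genes tested. With a bar of 25% the Tet-MYC line had 24 MRPL and 21 MRPS genes, against 16.9% of all genes tested, and the difference 21 and 19, against 16.2%. Median ratio scaling gave 10 MRPL genes in place of 6 (all genes 6.68%), rescaling to the same sum gave 3 MRPS genes in place of 7 in the difference (all genes 5.17%), and the pTRIPZ line with Dox as reference gave 3 MRPS genes in place of 8 (all genes 6.50%). Of 305 values of single named genes, 287 moved by less than that spread and 18 moved more, all with the latter reference. The sign turned in 8, under that reference in CHCHD1, MRPL41, MRPL51, MRPL57, MRPS11 and MRPS36 and with the same sum in MRPL51 and MRPS11. The cause was not tested. Depth limits little here, with counting errors of at most 0.07 in the Tet-MYC line, and the missing replicates limit every statement.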
